A study of Mus musculus with 12 samples.

Results

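A set of 9 genes of nitrogen disposal was followed through the livers and brains of mice that lack Mettl5 and of their controls: the urea cycle genes Cps1, Otc, Ass1 and Asl, the ornithine carrier Slc25a15, the liver-type glutaminase Gls2, and the glutamine synthetase Glul with its neighbours Oat and Rhbg. They were taken by symbol from the table of read counts, which matched all 9 of them among 55487 genes. METTL5 is an enzyme that puts a methyl group on the small ribosomal RNA, and the study asked which transcripts of whole organs differ in its absence. The libraries hold total RNA of 2 organs, liver and brain, from each of 6 mice. WT mice were B, D and E and Mettl5 KO mice A, C and F, so that each of the 4 groups had 3 libraries. The KO allele had lost a floxed exon 2 of Mettl5 in the whole body through CMV-Cre, on a background of C57bl/6 and 129S6 that had been crossed back to B6. The labels name no agent in any group. The control group is WT by its labels, but the study describes the sequenced animals as pairs of Mettl5-/- and Mettl5+/- mice, and WT is used here as the name of the label only. Which KO and control mouse formed a pair is not in the labels, so that no such pairing entered a test. Sex, age, litter, liver lobe and brain region are not in the labels.

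Hepatocytes turn ammonia into waste in series along the path of the blood. Those near the portal vein release ammonia from glutamine through GLS2 and convert it to urea, starting in the mitochondrion with CPS1 and OTC and going on in the cytosol with ASS1 and ASL, while SLC25A15 carries ornithine back into the mitochondrion. A thin layer of hepatocytes around the central vein takes up what escaped, with RHBG as an ammonium channel, OAT as a source of glutamate and GLUL as the enzyme that fixes ammonia into glutamine. The brain lacks a full urea cycle, and its astrocytes use GLUL to turn glutamate and ammonia into glutamine. Bulk RNA gives the level of these transcripts in a whole sample and not their position in the lobule.

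The liver libraries held between 16145754 and 21623180 counts each, the brain libraries between 14403309 and 18365114. Levels are given as CPM, counts per 1000000 of the TMM-scaled library size, and as CPM per kb of exon where genes are compared with each other. Mettl5 itself stood at 14.9, 8.13 and 8.35 CPM in WT liver and at 3.85, 3.64 and 4.07 CPM in KO liver, and at 9.09, 5.87 and 5.02 CPM in WT brain and 3.33, 3.96 and 3.82 CPM in KO brain. WT and KO libraries lay apart in both organs, and the gene was not called in liver (adjusted p = 0.383, edgeR) or in brain (adjusted p = 0.373, edgeR). The 8 hepatocyte markers together reached 71872 to 92651 CPM in WT liver and 85189 to 91690 CPM in KO liver, and the 6 neuron markers 3326 to 3956 CPM in WT brain and 3551 to 3744 CPM in KO brain. Mice E (WT) and F (KO) had Xist and almost no Y-linked transcripts, as female mice do. The other 4 mice had the reverse, as male mice do. The first principal component of the liver libraries, with 46.1% of the variance, set mice E and F apart. Results are therefore also given without them where that changed a direction or a count.

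The members lie on 8 chromosomes of mm10. Cps1 (ENSMUSG00000025991.8) spans positions 67123026 to 67231259 of chromosome 1, plus strand, and Glul (ENSMUSG00000026473.16) positions 153899944 to 153909723 of the same chromosome and strand. Otc (ENSMUSG00000031173.13) lies at 10252305 to 10321024 of chromosome X, plus strand. Ass1 (ENSMUSG00000076441.9) lies at 31470207 to 31520672 of chromosome 2, plus strand, and Asl (ENSMUSG00000025533.15) at 130011258 to 130029247 of chromosome 5, minus strand. Gls2 (ENSMUSG00000044005.13) lies at 128194457 to 128210004 of chromosome 10, plus strand. Oat (ENSMUSG00000030934.9) lies at 132557478 to 132576398 of chromosome 7 and Slc25a15 (ENSMUSG00000031482.9) at 22375551 to 22398597 of chromosome 8, both on the minus strand. Rhbg (ENSMUSG00000104445.1), at 88242874 to 88254709 of chromosome 3 on the minus strand, shares 1190 of its 1937 exon bases with Gm38392 on the same strand, so that reads there cannot be given to either gene with certainty and its count is uncertain. Gls2, Glul and Oat also overlap other genes, but each of these covers at most 3.07% of the member's exon bases.

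RefSeq promoter windows (GRCm38.p6) were at hand for 5 of the 9 members, and those of Otc, Glul and Oat are shown because Otc and Glul stand at opposite ends of the order by tissue described below, with Oat next to Glul. Each run is the 250 bases before the RefSeq start on the gene's own strand, and capitals mark CpG dinucleotides. Otc has its window at chrX:10252055-10252304 (plus strand), Glul at chr1:153899679-153899928 (plus strand) and Oat at chr7:132576399-132576648 (minus strand).
Otc: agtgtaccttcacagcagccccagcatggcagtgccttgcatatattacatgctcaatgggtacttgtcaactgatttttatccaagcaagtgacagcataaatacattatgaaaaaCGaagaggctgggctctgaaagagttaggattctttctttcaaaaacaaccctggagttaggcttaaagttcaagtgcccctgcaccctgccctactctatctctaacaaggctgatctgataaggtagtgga
Glul: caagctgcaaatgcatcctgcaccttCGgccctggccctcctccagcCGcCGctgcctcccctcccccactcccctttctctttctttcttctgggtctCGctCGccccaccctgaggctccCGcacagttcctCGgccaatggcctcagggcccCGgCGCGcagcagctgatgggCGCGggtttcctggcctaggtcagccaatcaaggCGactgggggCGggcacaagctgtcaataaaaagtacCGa
Oat: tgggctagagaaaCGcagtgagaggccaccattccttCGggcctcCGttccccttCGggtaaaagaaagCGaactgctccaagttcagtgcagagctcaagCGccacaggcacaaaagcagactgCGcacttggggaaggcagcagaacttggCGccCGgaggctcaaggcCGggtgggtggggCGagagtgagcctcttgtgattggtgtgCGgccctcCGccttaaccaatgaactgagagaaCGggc
Otc held 1 CpG and 43.6% GC, Glul 15 CpG and 64.8% GC, and Oat 14 CpG and 60.0% GC. Of 32851 windows of the same length, 92.1% held at least as many CpG as Otc, whereas 27.3% held at least as many as Glul and 29.4% as many as Oat. The windows not shown did not follow the order by tissue, as Ass1 held 23 CpG and 75.6% GC and the 2 windows of Slc25a15 held 11 and 43 CpG. The letters CCAAT, searched on both strands, occurred in the Glul and Oat windows and not in those of Otc, Ass1 and Slc25a15, and occurred in 33.8% of all windows. These are descriptions of sequence and were not tested against the levels.

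In WT liver the members covered a wide range of levels. Per kb of exon, Cps1, the mitochondrial entry of ammonia into the cycle, averaged 713 ± 144 CPM per kb (SD, n = 3) and Ass1, which joins citrulline and aspartate, 706 ± 254, and their libraries overlapped. Oat followed at 284 ± 111 and Glul at 166 ± 29.0 CPM per kb, which overlapped each other but lay apart from Ass1 above and Gls2 below. Gls2 (85.3 ± 28.7), Asl (70.03 ± 22.2), Otc (69.3 ± 10.03) and Slc25a15 (52.96 ± 8.68) formed a run in which each overlapped the next. Among all genes of the table, Cps1 ranked 61 and Slc25a15 648 by this measure. Rhbg stood far below at 0.332 ± 0.151 CPM per kb, on 6, 12 and 15 counts. The order of the 9 genes was the same in KO liver, from Cps1 at 790.0 ± 81.6 to Rhbg at 0.210 ± 0.0519 CPM per kb.

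Loss of Mettl5 was compared in liver, and none of the members passed the test. Of the 8 members tested (Rhbg fell below the filter on low counts), 0 were called at an adjusted p under 0.1, where 0.0% of the 14075 genes tested were called and 1032 had an unadjusted p under 0.05. With DESeq2 in place of edgeR, 171 genes and again 0 members were called. The members' log2 fold changes had a median of -0.10, beside -0.00 over all genes, and 7 of 8 lay below it. On plain library totals the median of all genes moved to 0.09 and the same number of members lay below it, although Ass1 (0.041), Gls2 (0.027) and Glul (0.074) were then above 0. The 95% confidence interval of the fold ran from 0.758 to 1.31 for Glul and, at its widest, from 0.388 to 1.22 for Oat. Mitochondrial rRNA took 10.7% to 16.9% of counts in WT liver and 7.36% to 8.66% in KO liver, and its part in the liver values, those of Otc included, was not tested. In bulk samples, fewer cells of a type and less RNA per cell cannot be told apart, and this holds for each level given here.

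The mitochondrial steps came first. Cps1 stood at 3849, 3219 and 4807 CPM in WT mice B, D and E and at 4907, 4067 and 4191 CPM in KO mice A, C and F. These groups overlapped, with a log2 fold change of 0.15 ± 0.18 (SE) and an adjusted p of 0.921 (edgeR). Otc, which makes citrulline, had 289, 254 and 339 CPM in WT liver and 213, 241 and 232 CPM in KO liver. Every KO library lay below every WT library, as was the case in either direction for 12.9% of all genes tested. Its log2 fold change of -0.36 ± 0.15 had an unadjusted p of 0.0369, as 7.33% of genes had one under 0.05, and an adjusted p of 0.659 (edgeR). Over the alternative settings its log2 fold change ran from -0.45 to -0.20, all below 0, with adjusted p from 0.263 to 0.985. Slc25a15, the ornithine carrier between both compartments, had 274, 266 and 354 CPM in WT and 245, 288 and 282 CPM in KO liver, and these overlapped (log2 fold change -0.13 ± 0.16, adjusted p = 0.912, edgeR).

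The cytosolic steps showed wider spread between mice than between genotypes. Ass1 had 1613, 1143 and 2359 CPM in WT and 1382, 1637 and 1955 CPM in KO liver, with a log2 fold change of -0.04 ± 0.26 whose sign turned without mouse A or without mouse E (alone or with F). Asl, which splits argininosuccinate into arginine and fumarate, had 343, 229 and 443 CPM in WT and 203, 277 and 331 CPM in KO liver (log2 fold change -0.32 ± 0.26, adjusted p = 0.868, edgeR). That estimate was -0.08 without mouse E, -0.15 without A, -0.49 without F and -0.54 without D. In both genes mouse E was the highest of all 6, and for Ass1 mouse D the lowest.

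**Figure D1:**
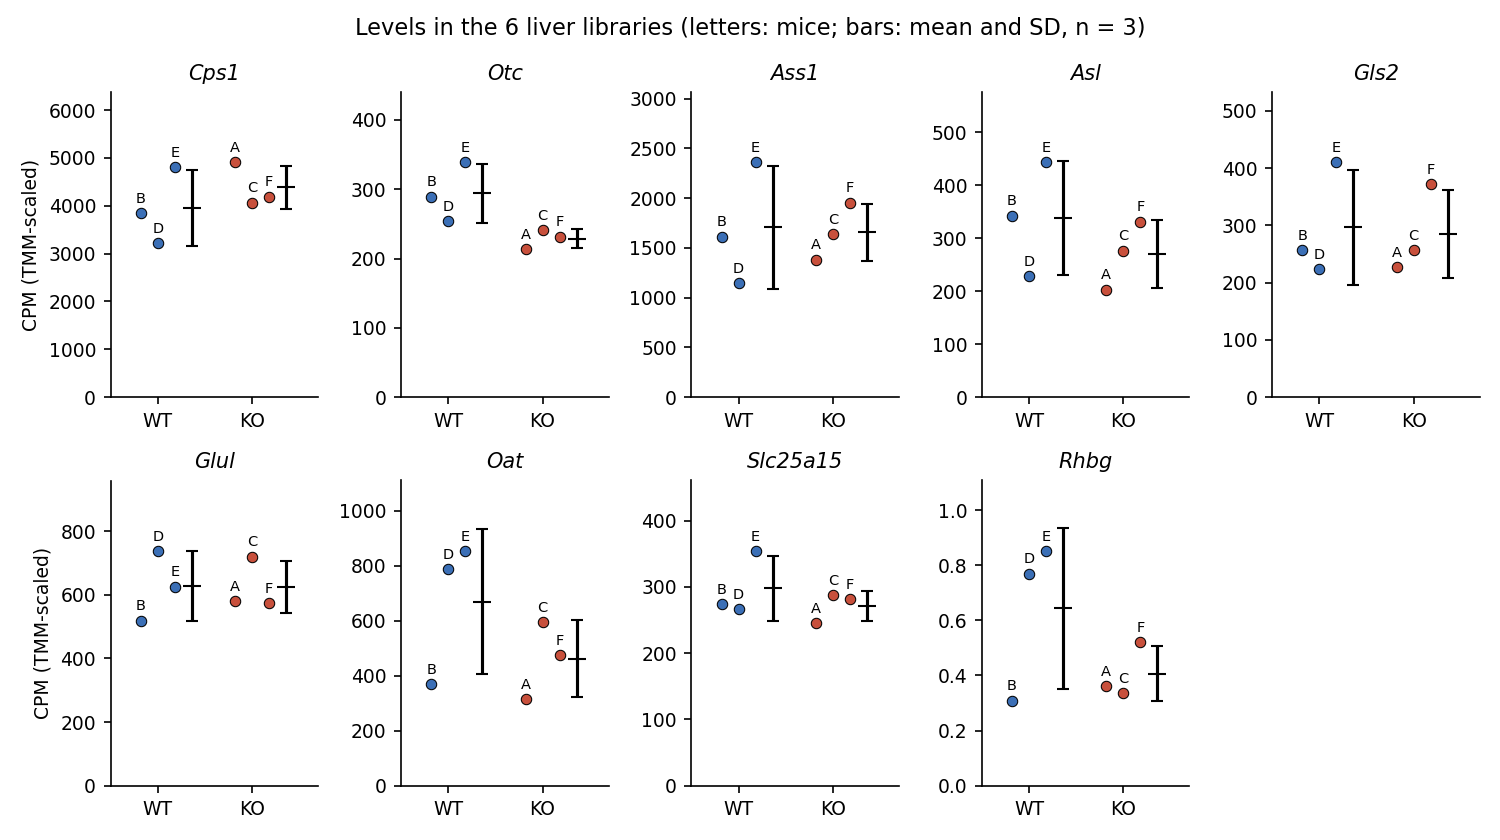
CPM (TMM-scaled, linear axes from 0) of the 9 members in the 6 liver libraries, with WT in blue, KO in red, letters for mice and bars for the mean and SD of 3 libraries. WT and KO points overlap for each member except Otc, whose KO points (213 to 241 CPM) lie below the WT points (254 to 339 CPM), and Gls2 is highest in mice E and F.

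The 4 genes of glutamine turnover gave no call either. Gls2, the periportal glutaminase, had 256, 223 and 409.8 CPM in WT and 226, 256 and 372 CPM in KO liver. The highest value of each genotype came from mouse E or F, and the log2 fold change of -0.06 ± 0.27 turned its sign without mice E and F (0.02). Glul, the pericentral glutamine synthetase, had 518, 738 and 626 CPM in WT and 580.2, 720.1 and 574 CPM in KO liver, and its KO libraries lay within the WT range. The estimate for Glul was -0.01 on the log2 scale with a 95% confidence interval from -0.40 to 0.39, and its sign turned under several alternative settings. Oat, which turns ornithine into a precursor of glutamate, spanned the widest range of the tested members on the log2 scale, with 369, 787 and 854 CPM in WT and 315, 596 and 474 CPM in KO liver. Mouse B lay with the KO mice, and the log2 fold change of -0.54 ± 0.35 had an adjusted p of 0.813 (edgeR). Rhbg had 6, 12 and 15 counts in WT and 6, 6 and 10 counts in KO liver, too few for a test. The ratio of Glul to Gls2 per exon length, a comparison of glutamine synthesis with glutamine breakdown inside a library, was 2.10 ± 0.846 in WT and 2.12 ± 0.617 in KO liver (SD, n = 3), with ranges of 1.40 to 3.04 and 1.42 to 2.58.

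Other genes of the pathway were counted from lists written from general knowledge. None of the lists had a call by genotype in liver in the edgeR fit with TMM and the filter on low counts. Among the 15 tested partners of the urea cycle, such as the aspartate carriers, transaminases and sirtuins, 11 were above and 4 below 0. Their median was 0.08 on the log2 scale, and 0 had an unadjusted p under 0.05. Its smallest p belonged to the mitochondrial deacetylase Sirt3 (log2 fold change 0.26 ± 0.13). Glutamine and glutamate handling had 15 tested genes with a median of -0.01, led by the glutamate transporter Slc1a2, known from the same pericentral cells as Glul, at 132, 169 and 143 CPM in WT and 133, 81.5 and 85.3 CPM in KO liver (log2 fold change -0.57 ± 0.20, adjusted p = 0.558, edgeR). The ornithine, proline, arginine and polyamine list had 14 tested genes with a median of -0.00, led by the antizyme Oaz1 (0.30 ± 0.13). Among 17 genes of other amino acid catabolism the median was -0.03, and the tyrosine aminotransferase Tat had 1661 to 1882 CPM in WT and 1019.7 to 1315 CPM in KO liver (-0.53 ± 0.16, unadjusted p = 0.0081, adjusted p = 0.471, edgeR).

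Marker genes of the lobule's poles were counted in the same way. The 17 other periportal genes had a median log2 fold change of -0.05 with 8 above and 9 below 0, and their smallest p came from the lipid transporter Mfsd2a (-1.98 ± 0.75, adjusted p = 0.675, edgeR). The 25 other pericentral genes had a median of 0.13 with 15 above and 10 below 0. Of these, 5 had an unadjusted p under 0.05, as had 7.33% of all genes, and 4 are named by the rule. Avpr1a, the vasopressin receptor, had 27.2, 26.2 and 35.8 CPM in WT and 45.8, 52.4 and 51.6 CPM in KO liver (0.75 ± 0.15, adjusted p = 0.383, edgeR), the cytochrome Cyp1a2 0.52 ± 0.19 and the gulonolactone oxidase Gulo 0.34 ± 0.14, while Slc1a2 had the opposite sign. Of the regulators 8 lay above and 8 below 0, with a median of 0.01, and Foxa2 had the smallest p (0.41 ± 0.16, adjusted p = 0.620, edgeR). With DESeq2 the pericentral list had 1 call and the other lists 0, where 1.1% of all genes were called. Without the filter on low counts the pericentral list had 5 calls of its 25 genes and 2 of the other lists had 1 each, where 1.63% of all genes were called.

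In brain the order of the members was another one. Glul led at 179 ± 24.0 CPM per kb of exon in WT and 167 ± 28.9 in KO brain, rank 97 and 111 among all genes, and lay apart from Oat at 22.3 ± 3.86 and 17.9 ± 1.37. Ass1 (4.88 ± 0.278 in WT) and Gls2 (4.43 ± 0.556) overlapped each other, as did Slc25a15 (1.87 ± 0.120) and Asl (1.74 ± 0.124). Cps1 averaged 0.301 ± 0.123, on 21 to 48 counts, and Otc had 0, 0 and 2 counts in WT and 1, 2 and 1 counts in KO brain. A gene with at most 3 counts in each library of a group is taken as at a floor of 3 counts per library, so Otc and Rhbg, which had 0 counts in all 6 brain libraries, were at the floor. These floors cover counting error only. The astrocyte markers reached 3450 to 4489 CPM in WT brain and 3307 to 4516 CPM in KO brain. The same genes summed to 1347 to 1762 CPM in WT liver, so this sum is not specific to astrocytes and does not give their share.

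Loss of Mettl5 in brain also left each tested member short of a call. The edgeR fit tested 7 members (Otc and Rhbg fell below the filter) and called 0, where 0.064% of 17188 genes, 11 in number, were called. The 7 log2 fold changes had a median of -0.11, beside -0.00 over all genes, and 6 of 7 lay below it, as on plain library totals, where that median was -0.23. Of the 7, 0 had an unadjusted p under 0.05, as 11.0% of all genes had. Glul had 576, 753 and 699 CPM in WT and 602, 755 and 543 CPM in KO brain, a log2 fold change of -0.09 ± 0.17 and a 95% confidence interval from -0.48 to 0.29. Oat had 42.8, 60.7 and 54.6 CPM in WT and 40.2, 45.9 and 40.5 CPM in KO brain, with an overlap through mouse B alone. The log2 fold change of Oat was -0.32 ± 0.16, with an unadjusted p of 0.0692 and an adjusted p of 0.473 (edgeR). Asl had 8.76, 8.78 and 7.74 CPM in WT and 5.93, 6.33 and 8.70 CPM in KO brain (-0.27 ± 0.21, adjusted p = 0.628, edgeR), with mouse F among the WT values.

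The remaining members overlapped between genotypes in brain or rested on few counts. Ass1 had 11.0, 12.2 and 12.1 CPM in WT and 12.2, 12.7 and 11.1 CPM in KO brain, and Gls2 13.5, 15.2 and 17.4 CPM in WT and 14.7, 16.3 and 13.8 CPM in KO brain. Slc25a15 had 11.3, 9.93 and 10.4 CPM in WT and 12.03, 8.85 and 8.57 CPM in KO brain. In each of these 3 genes the groups overlapped, with adjusted p of 0.958, 0.935 and 0.839 (edgeR). Cps1 had 24, 48 and 21 counts in WT and 13, 16 and 15 counts in KO brain, or 1.55, 2.41 and 1.06 CPM against 1.06, 1.15 and 0.989 CPM, so that mouse E lay among the KO mice. Its log2 fold change of -0.65 ± 0.41 was -0.28 without mouse D and -0.89 without mouse E, and it is set beside the hepatocyte markers below. Mitochondrial rRNA took 7.63% to 17.7% of counts in WT brain and 21.4% to 31.6% in KO brain, Bergmann glia markers reached 278 to 461 CPM in WT and 200.1 to 262 CPM in KO brain, and choroid plexus markers 222 to 381 CPM and 112 to 179 CPM. Their part in the brain values was not tested.

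**Figure D2:**
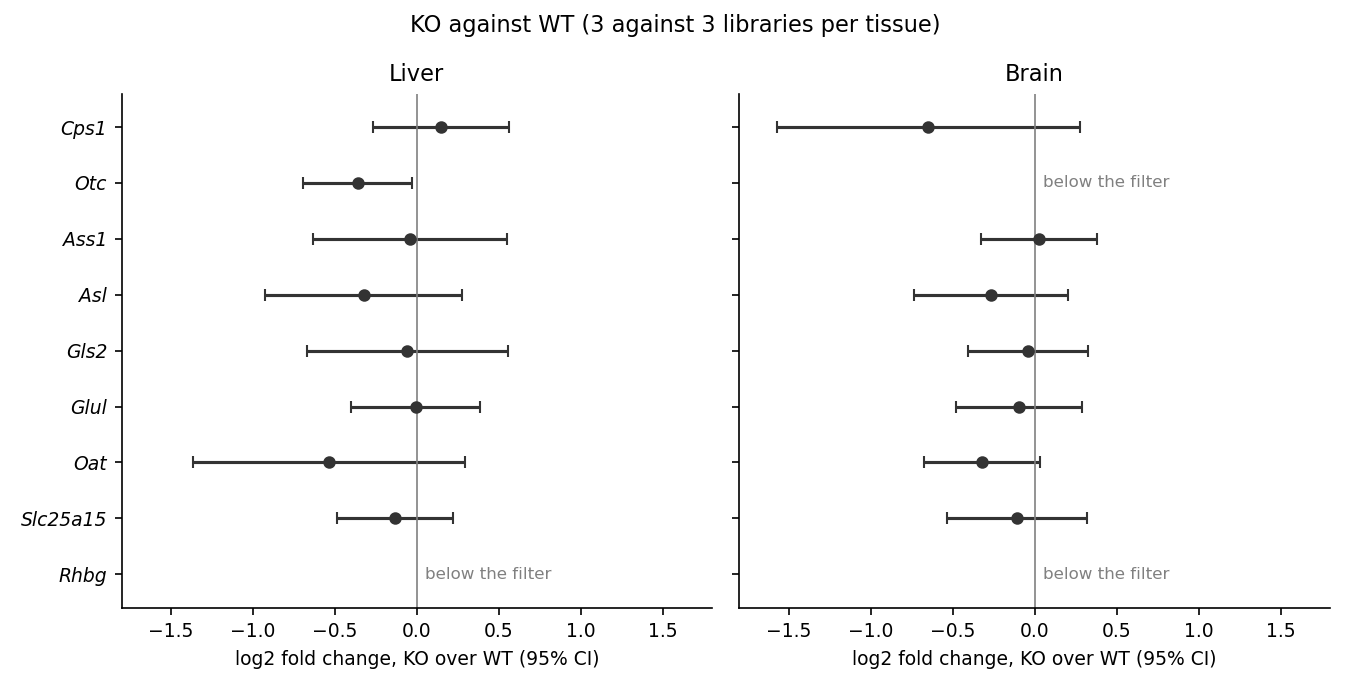
Log2 fold change of KO over WT for each member in liver (left) and brain (right), with 95% confidence intervals from the edgeR fit of 3 against 3 libraries, where "below the filter" marks members that were not tested. In liver 7 of 8 estimates and in brain 6 of 7 lie left of 0 with TMM (plain library totals move the median of all genes to 0.09 in liver and to -0.23 in brain, and with it the signs of Ass1, Gls2 and Glul in liver and of Ass1 in brain), and no member is called in either tissue.

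The lists around the pathway had no call by genotype in brain in the edgeR fit with TMM and the filter. Of 16 tested partners of the urea cycle 14 were below 0, with a median log2 fold change of -0.16. The list held Got2, the mitochondrial aspartate aminotransferase (-0.38 ± 0.16), and, above 0, Sirt3 (0.33 ± 0.14), each with an unadjusted p under 0.05 and an adjusted p of at least 0.437 (edgeR). Glutamine and glutamate handling had 19 tested genes and a median of -0.14. There Gad2, the GABA-making decarboxylase of inhibitory neurons, had 129.8, 106 and 121 CPM in WT and 205, 148 and 169 CPM in KO brain (0.55 ± 0.16, adjusted p = 0.355, edgeR), while the astrocyte transporter Slc1a3 (-0.42 ± 0.17) and the glutamine transporter Slc38a1 (-0.43 ± 0.18) lay below 0. All 9 tested genes of other amino acid catabolism were below 0 (median -0.26), led by the leucine-pathway enzyme Ivd at -0.44 ± 0.17, and the 13 genes of ornithine and proline metabolism had a median of -0.17. The median of all genes was -0.00 with TMM and moved to -0.23 on plain library totals, a shift larger than most of these medians and in the same direction. Relative to that median the tested members kept their place, with Oat at -0.321 with TMM and -0.325 on library totals. The lists were not placed in this way. The lobular lists carry no meaning of place in brain. The pericentral genes had a median of 0.02 (8 above and 7 below 0), the regulators 0.02 (6 above and 6 below) and the periportal genes -0.27 (1 above and 6 below). Among their genes, the stem cell receptor Lgr5 (1.11 ± 0.35) and the regulator Apc (0.52 ± 0.17) had the smallest p, with adjusted p of 0.367 and 0.373 (edgeR).

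Whether the effect of genotype differed between the tissues was asked of all 12 libraries together. Of 8 members tested, 0 were called, as were 0.0% of 18944 genes, of which 2004 had an unadjusted p under 0.05. The liver effect of Cps1 minus its brain effect was 0.83 ± 0.40 on the log2 scale (adjusted p = 0.490, edgeR), and it was 0.32 without mouse D and 1.25 without mouse E. The same difference was 0.12 ± 0.27 for Glul and -0.18 ± 0.40 for Oat, and no value is given for Otc, which was at the floor in brain. The lists had 0 calls here too, beside a median difference of 0.04 over all genes. Their medians were 0.50 for the periportal genes, 0.44 for other amino acid catabolism, 0.31 for glutamine and glutamate handling, 0.30 for ornithine and proline metabolism, 0.29 for the partners of the urea cycle, 0.01 for the pericentral genes and -0.08 for the regulators. In the brain fit alone, 7 of the 17 periportal genes and 9 of the 17 catabolism genes passed the filter. The others entered here through their liver counts, so the medians of these lists are no measure of a difference between tissues. With the mouse as a replicate block, which uses the fact that the liver and brain with a letter come from the same animal, 68 genes and 0 members were called.

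WT liver was then set against WT brain, on a scaling shared by those 6 libraries. All 8 members tested were called as higher in liver. Of 17694 genes, 78.3% were called in either direction, 35.4% as higher in liver, and 75.6% had an unadjusted p under 0.05. Otc, with 0, 0 and 2 counts in WT brain, passed the filter through its liver counts alone, so its call adds nothing to the bound given below. The members' log2 fold changes had a median of 5.75, which lies between Slc25a15 and Asl and does not depend on the value of Otc, beside -0.16 over all genes. Otc had 377, 329 and 437 CPM in WT liver and 0, 0 and 0.0815 CPM in WT brain, at least 2854-fold higher in liver against a floor of 3 counts per library. Cps1 had 5018, 4163 and 6209 CPM against 1.26, 1.94 and 0.855 CPM, a ratio of means of 3799. Ass1 (ratio of means 232), Asl (64.3), Slc25a15 (45.2), Gls2 (30.9) and Oat (20.3) followed, each with 3 liver libraries far above the 3 brain libraries. The log2 fold changes of Cps1 and these 5 genes lay between 4.35 and 11.88 with adjusted p of at most 7.38e-07 (edgeR).

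Glul was the member for which the tissues were closest. Its levels were 676, 954 and 808 CPM in WT liver and 468, 607 and 567 CPM in WT brain, apart but near each other. The log2 fold change of 0.57 ± 0.21 had an adjusted p of 0.0278 (edgeR), and this call ended without mouse B (adjusted p = 0.104). Its direction depended on the scaling. On plain library totals, without TMM, the log2 fold change of Glul was -0.27 with an adjusted p of 0.315 (edgeR) and that of all genes had a median of -0.99, a shift of all genes to be set beside the values of each member. The other 7 members tested, Otc through its liver counts alone, were called on that scale too, with log2 fold changes from 3.53 for Oat upward. At equal library totals, the Glul level of brain per 1000000 of that in the liver of the same mouse (abbreviated ppm) was 1273775, 1193221 and 1166409 ppm in WT mice B, D and E. It was 851694, 1022979.9 and 844465 ppm in KO mice A, C and F, all below the WT mice, as was the case for 25.9% of 12548 genes, while 2.91% had all KO mice above. The genotype effect on Glul in liver minus that in brain was 0.40 on the log2 scale at these totals, beside 0.32 over all genes, and 0.12 ± 0.27 with TMM (adjusted p = 0.936, edgeR).

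Rhbg had 0 counts in each brain library and 6 to 15 in WT liver, so its level in liver was at least 6.23-fold higher than the floor in brain. It was not tested in the main fit, while DESeq2, the fit without the filter and the fit without mouse B called it. Without mouse B it passed the filter only through its liver counts. With 0 counts in brain, these calls add nothing to the bound.

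Paralogs of Slc25a15 and Rhbg were also read in both tissues. The ornithine carrier Slc25a2 had 0.509 ± 0.380 CPM per kb in WT liver and 0.671 ± 0.242 in WT brain and was not called (log2 fold change -0.36 ± 0.57, adjusted p = 0.584, edgeR). The ammonium transporter Rhcg had 0 counts in all liver libraries and 3 to 23 counts in brain.

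**Figure D3:**
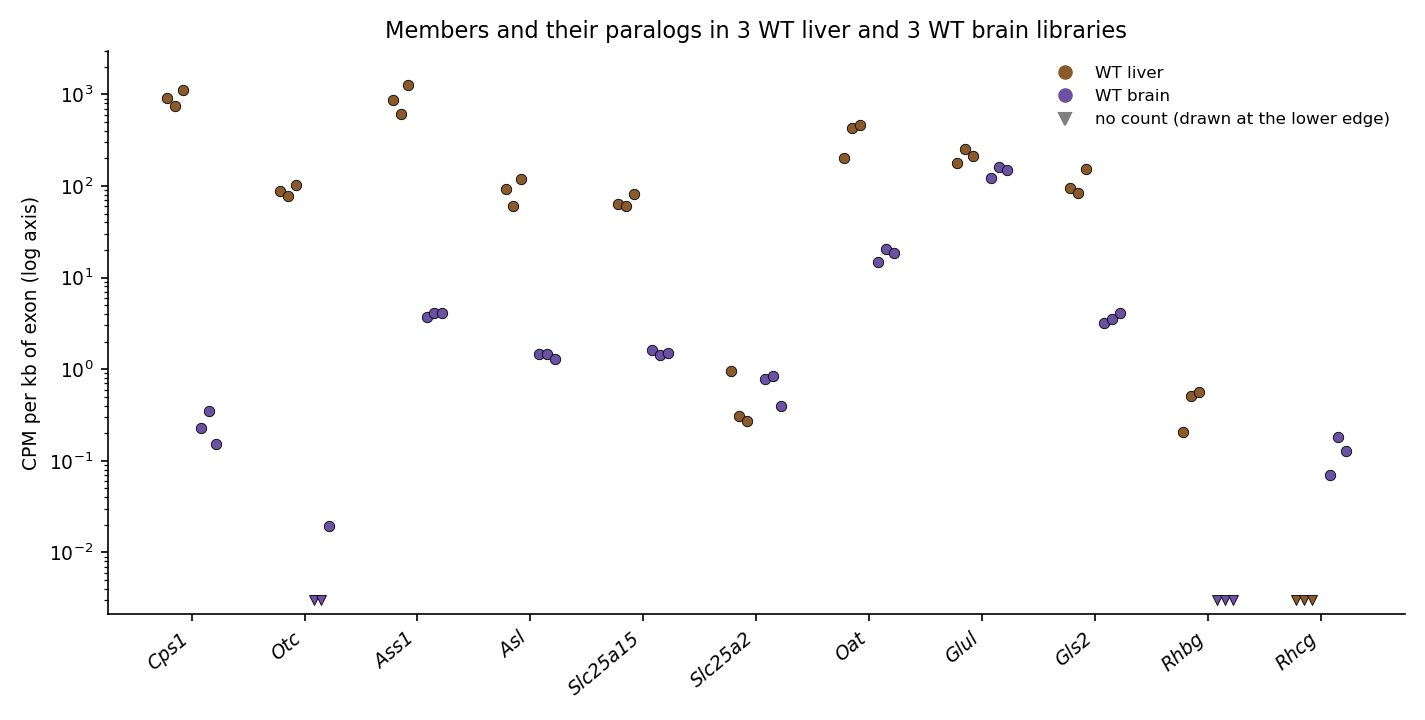
CPM per kb of exon (log axis) in the 3 WT liver (brown) and 3 WT brain (purple) libraries on their shared TMM scaling, for the members and their paralogs Slc25a2 and Rhcg, with triangles for libraries without a count. Cps1, Otc, Ass1 and Asl lie far apart between the tissues, and Glul lies close together (its order turns on plain library totals).

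The lists around the pathway placed these values. Of 17 tested partners of the urea cycle, 13 were called as higher in liver and 3 as lower, with a median log2 fold change of 2.41. Nags, which makes the activator of CPS1, had 1 count in the 3 WT brain libraries together and was at least 558-fold higher in liver against the floor of 3 counts per library. Slc25a13, the aspartate and glutamate carrier citrin, had a log2 fold change of 6.08 ± 0.19. Of 21 genes of glutamine and glutamate handling, 6 were called as higher and 14 as lower, among them the amino acid transporter Slc38a4 at 10.84 ± 0.30 and Slc1a3 at -8.31 ± 0.33. Gad2 had 0 counts in the WT livers and was at least 431-fold higher in brain against the floor. All 17 genes of other amino acid catabolism were called as higher in liver (median 9.89, or 9.62 with 2 genes at the floor in brain set to their bound), with 16 of 17 periportal and 22 of 25 pericentral genes. In the ornithine and proline list 9 genes were called as higher and 6 as lower. Among regulators the hepatocyte factor Hnf4a had 8072 to 10339 counts per library in WT liver and 1 to 5 in WT brain.

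The few brain reads of Cps1 and Otc were set beside transcripts known from hepatocytes. On the same scale, the brain level over the 6 mice was 177 to 874 ppm of the liver level for Cps1 and 0 to 582 ppm for Otc. For 6 of the 8 hepatocyte markers the corresponding ranges in ppm were 159 to 495 for albumin (Alb), 124 to 689 for Apoa1, 93.7 to 536 for Apoc3, 106 to 390.0 for Serpina1c, 120.0 to 409.7 for Fgb and 128 to 659.9 for Ahsg. The other markers lay far higher, at 24341 to 112255 ppm for transthyretin (Ttr), known also from the choroid plexus, and 10562 to 44294 ppm for transferrin (Trf), known also from oligodendrocytes. Mouse D had the highest value for Cps1 and for each of the 6 low markers. Brain counts per mouse were few for Apoc3 (1 to 5) and Serpina1c (2 to 13), so the edges of these ranges carry counting error. The summed level of the 6 low markers in brain was 14.1 to 32.9 CPM in WT and 13.0 to 16.9 CPM in KO libraries, all of them above 0. The part of such transcripts in the Cps1 difference between WT and KO brain was not tested. Another 5 members lay above the range of the 6 low markers, and in or near the range of Ttr and Trf, with 5085 to 12519 ppm for Ass1, 18223 to 44847 for Asl, 27162 to 47225 for Slc25a15, 33238 to 79700.1 for Gls2 and 66737 to 132710.2 for Oat.

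**Figure D4:**
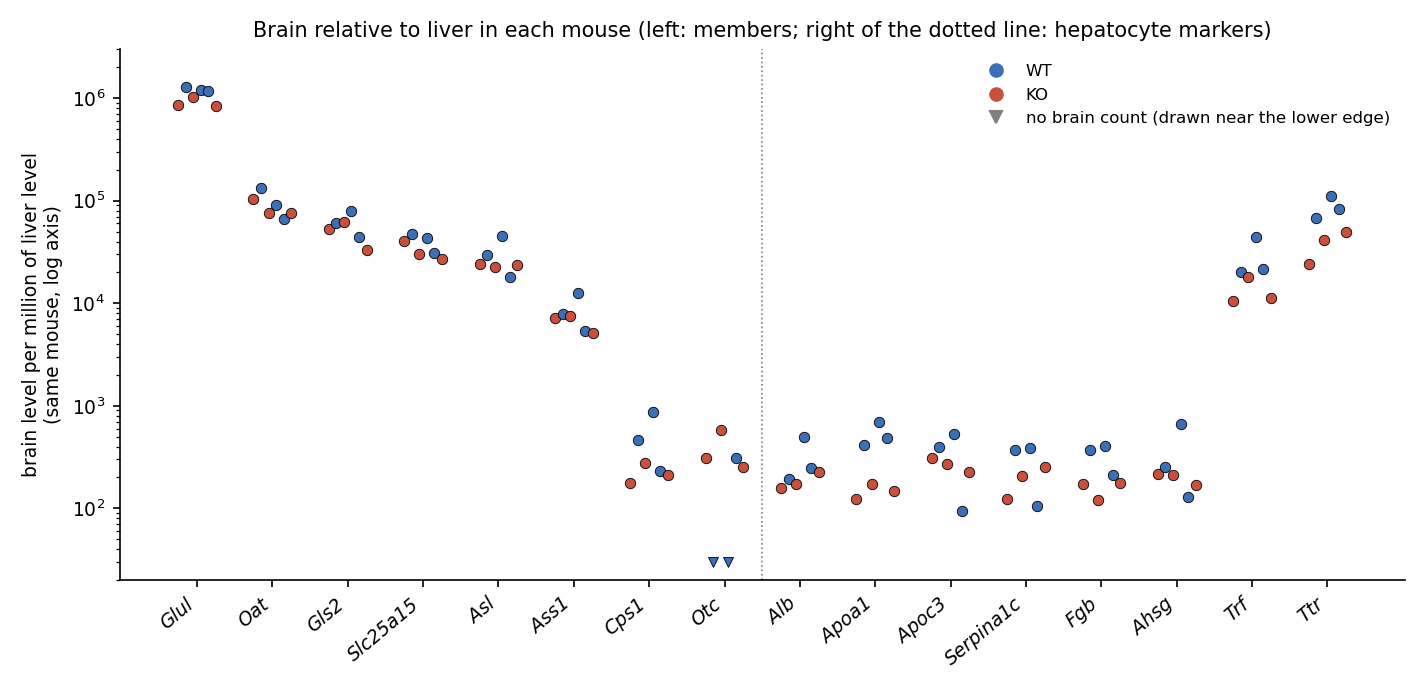
Brain level per 1000000 of the liver level in the same mouse at equal library totals (log axis) for 8 members, left of the dotted line, and 8 hepatocyte markers, right of it, with WT in blue, KO in red and triangles for 0 brain counts. Cps1 and Otc lie in or near the range of the 6 low markers, from 93.7 (1 brain count of Apoc3) to 689. Otc had at most 2 brain counts per mouse. Ttr and Trf lie at 10562 and above, and Ass1, the next member, lies at 5085 to 12519.

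The members varied together in part across the 6 livers. On log2 CPM the Pearson correlation was 0.93 between Ass1 and Gls2, 0.88 between Ass1 and Asl, 0.85 between Asl and Gls2 and 0.87 between Asl and Slc25a15. Glul had 0.71 with Oat and values between -0.41 and 0.12 with the other 6 members tested. Otc had 0.81 with Asl, 0.82 with Slc25a15 and 0.55 with Ass1, while Cps1 had 0.61 with Ass1, 0.24 with Asl and 0.03 with Otc. These are descriptions over 6 libraries that share their normalisation, genotype groups and the split of mice E and F from the rest. By the same measure over 14075 genes, the 5 genes most like Glul were Them7 (0.99), Ttc32 (0.99), Pcolce2 (0.98), n-R5s96 (0.96) and Smim7 (0.96). Those most like Cps1 were Pdgfc, Zmynd15, Adcyap1r1, Tbc1d1 and Ylpm1, with correlations from 0.97 to 0.98. So many genes and so few libraries give high values readily, and 37 genes exceeded 0.95 for Cps1.

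Mice E and F were also set against the other 4 mice, a split read from the Y-linked transcripts and chosen after the data were seen, with the genotype in the fit. These 2 mice are 1 WT and 1 KO animal and no group of the study, and what else sets them apart (age, litter, handling) is not in the labels and cannot be told apart. Of the 8 members tested, 2 were called, both as higher in mice E and F, where 10.4% of the 14075 genes were called, 4.45% as higher, and 21.8% had an unadjusted p under 0.05. Gls2 was higher by 0.70 ± 0.12 on the log2 scale (adjusted p = 0.00777, edgeR) and Ass1 by 0.58 ± 0.17 (adjusted p = 0.0764, edgeR). Leaving out a mouse gave 0.62 to 0.77 for Gls2, whose call was lost without mouse E (0.62, adjusted p = 0.164, edgeR). It gave 0.37 to 0.77 for Ass1, whose call was lost without A, B, E or F, with adjusted p from 0.109 to 0.576 (edgeR). Without E or F that side of the split holds 1 mouse, which is assumed to vary like the others. Asl had 0.55 ± 0.18 (adjusted p = 0.117, edgeR) and was called with DESeq2, without the filter, with the GC offset and without mouse B or C, and Glul had -0.09 ± 0.16. In brain, 0 members were called for this split with edgeR, where 0.0233% of 17188 genes were called and 1.89% had an unadjusted p under 0.05, and the members' unadjusted p was at least 0.235.

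**Figure D5:**
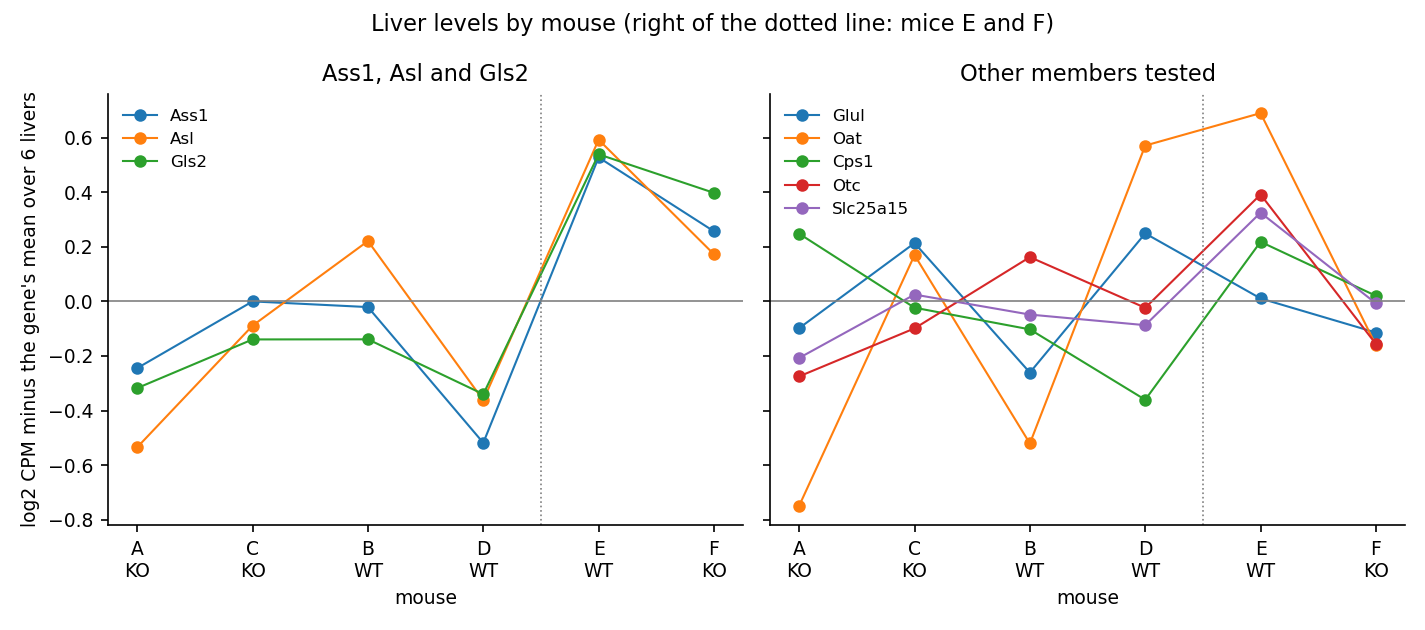
Log2 CPM of each member minus its mean over the 6 livers, by mouse (thin lines join the points of a gene and imply no order), for Ass1, Asl and Gls2 on the left and the other tested members on the right. Gls2 and Ass1 are highest in mice E and F, right of the dotted line, and Oat spans the widest range.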

How the data were processed

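The authors deposited 1 table of raw read counts per gene for 12 libraries (SMARTer stranded total RNA, single-end reads). Per the labels and methods, reads were trimmed with Trimmomatic, aligned to mm10 with STAR 2.7.3a and counted over exons with featureCounts, reverse-stranded. Counts were not normalised before deposit.

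Counts were tested with edgeR 4.0.16 in R 4.3.3: filterByExpr, TMM, robust quasi-likelihood F test with Benjamini-Hochberg adjustment across the whole tested table. A gene with an adjusted p below 0.1 was called. Each tissue was fitted on its 6 libraries, WT liver against WT brain on 6, and the difference between tissues on 12. SE and 95% intervals come from the F statistic. Correlations use log2 CPM with a prior count of 2. Named are all members and, per list and comparison, up to 4 genes with the smallest p. Members and lists were chosen with earlier results of these data known. Some genes are not reported here, and counts of members leave them out. The scripts were tested on simulated data. DESeq2 1.42.0, other scalings, filters, GC offsets and left-out mice were the alternatives.

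Labels pair liver and brain by mouse, and the deviations of a mouse's 2 libraries had correlations from -0.0389 to 0.140 over 12574 genes. The study speaks of pairs of KO and control mice, but their partners are not in the labels, so no fit used such pairs. The labels name each mouse, so replicates are animals.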

Additional observations from a re-analysis of the deposited data

How the results depend on the processing

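No member was called by genotype in liver or brain, or for the difference between tissues, under any alternative run. Of WT liver against WT brain, 7 members were called on plain library totals (an alternative chosen after the data were seen) and 8 or 9 otherwise. The 8 without mouse B hold Rhbg in place of Glul, and the 9 hold Rhbg too. Otc and Rhbg, at the floor in brain, entered these counts through their liver counts alone. The number of all genes called moved more. In liver, with 0 called, it was 171 with DESeq2, 443 without the filter on low counts, 29 without mice E and F, 3 with all 12 libraries in the fit, 82 with a Y-linked covariate, and 0 to 87 when a mouse was left out (87 without D). In brain, with 11 called, it was 269 with DESeq2, 1000 without the filter, 22 with a GC offset, 4 on library totals, 0 without mice E and F, and 2 to 23 when a mouse was left out. For the difference between tissues, with 0 called, it was 1 with DESeq2 size factors, 369 with DESeq2, 183 without the filter, 68 with the replicate block of mouse, and 0 to 86 when a mouse was left out. The cause was not tested.

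Among called members, only Glul between WT tissues turned its sign. In liver, log2 fold changes without mice E and F were 0.14 for Ass1, 0.018 for Gls2 and 0.056 for Glul, and on library totals 0.041, 0.027 and 0.074 (with a median of 0.09 over all genes), while Glul had 0.0072 without the filter and 0.024 with all 12 libraries. Leaving out a mouse gave -0.26 to 0.27 for Ass1, -0.29 to 0.25 for Gls2, -0.13 to 0.13 for Glul and -0.21 to 0.0078 for Slc25a15. In brain, Gls2 had 0.10 with the GC offset and 0.12 without mice E and F, Glul 0.035 without them, and Ass1 -0.20 on library totals (with a median of -0.23 over all genes), and leaving out a mouse gave -0.019 to 0.079 for Ass1, -0.12 to 0.065 for Gls2 and -0.24 to 0.0043 for Glul. Between WT tissues Glul turned to -0.27 on library totals, and was 0.54 without mouse B, where its call ended.

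For the difference between tissues, the pairing of liver and brain by mouse entered as a replicate block gave 0.014 for Ass1 and 0.023 for Asl. Without the filter they had 0.0061 and 0.013, without mice E and F 0.057 and 0.29, and on library totals 0.24 and 0.25. Gls2 had -0.15 with the GC offset and -0.074 without mice E and F, Slc25a15 -0.014 with DESeq2 size factors and -0.0055 with DESeq2, and Oat 0.079 on library totals. Leaving out a mouse gave -0.29 to 0.25 for Ass1, -0.28 to 0.27 for Asl, -0.28 to 0.22 for Gls2, -0.33 to 0.0093 for Oat and -0.11 to 0.25 for Slc25a15. The replicate block changed no member's call, between WT tissues or for this difference. For the split of mice E and F from the rest, leaving out a mouse gave -0.10 to 0.44 for Cps1 and -0.21 to 0.010 for Glul. Counts were few for Otc, Cps1 and Rhbg in brain and for Rhbg in liver.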

Other observations

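The set of genes around the members was also described for mice E and F, which had Xist and almost no Y-linked transcripts, against the other 4 mice in liver, with the genotype in the fit. This comparison was chosen after the data were seen. Of 14075 genes 1459 were called, and the number was 347 without mouse F, 349 without mouse E, 864 without mouse B and 2263 without the filter on low counts. Among 15 partners of the urea cycle, 4 were called, all as higher in mice E and F: the cytosolic aspartate aminotransferase Got1 (log2 difference 0.97 ± 0.15, SE), the mitochondrial carbonic anhydrase Car5a (0.61 ± 0.18), the cationic amino acid transporter Slc7a2 (0.48 ± 0.15) and the alanine aminotransferase Gpt (0.45 ± 0.12). Of 14 genes of ornithine, proline and arginine metabolism, 4 were called as higher, led by Gatm, which makes the creatine precursor from arginine (1.01 ± 0.12), and the proline dehydrogenase Prodh (0.71 ± 0.14). Glutamine and glutamate handling had 2 calls as higher and 1 as lower, other amino acid catabolism 4 and 1, and the regulators 0. Without mouse E the partners had 0 calls, ornithine and proline metabolism 1, glutamine and glutamate handling 0 and other amino acid catabolism 1. Without mouse F these were 1, 1, 0 and 3.

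The poles of the lobule gave mixed directions in this comparison. Of 25 other pericentral genes 6 were called as higher and 1 as lower, with Cyp2a5 (1.01 ± 0.14) and the nuclear receptor Nr1i3 (0.93 ± 0.16) above and Aldh1a1 (-0.75 ± 0.16) below 0. Of 17 other periportal genes 1 was called as higher and 4 as lower, with the serine dehydratase Sds (0.75 ± 0.12) above and Cyp2f2 (-1.05 ± 0.14) below 0. Without mouse F the pericentral list had 1 call and the periportal list 3, and without mouse E each had 2. Sex is not in the labels, but Xist with almost no Y-linked transcripts marks mice E and F as female, and the reverse marks the other mice as male. Age and litter are not in the labels, so effects of sex and of these cannot be told apart.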
